A study of Mus musculus with 18 samples.

Results

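The tumour necrosis factor (TNF) superfamily of ligands and the TNF receptor superfamily were followed in mouse bone marrow-derived macrophages. The members are all gene symbols that start with Tnfsf or Tnfrsf, plus Tnf, Lta, Ltb, Ltbr and Fas, in the deposited count tables. The rule gave 37 of 24059 gene symbols, 15 ligands and 22 receptors, which the symbols alone decide; the family was picked for study with earlier results of these data known.

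The cells came from C57BL/6J mice and were differentiated for 7 days in L929-conditioned medium. On day 8 they were given reconstituted high-density lipoprotein (rHDL, CSL111, made from APOA1 and soybean phosphatidylcholine) for 20 h or not, washed, and then left alone or stimulated with lipopolysaccharide (LPS), the bacterial agonist of Toll-like receptor 4. For cholesterol loading, liposomes of the phospholipid POPC and cholesterol were given before that step. RNA-seq libraries formed 6 groups of 3: the first table holds untreated cells and LPS alone, the second LPS alone again, rHDL then LPS, loading then LPS, and loading then rHDL then LPS. All 4 groups of the second table received LPS, so rHDL and loading were never measured in resting cells. No source used here gives the dose and duration of LPS or the duration of loading, and nothing says whether replicates were separate animals or cultures. The p-values therefore measure only the spread between these libraries.

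TNF superfamily ligands are mostly trimeric proteins anchored in the membrane, and many can be cleaved off. Their receptors either carry a death domain, which can recruit FADD and caspases, or bind TRAF adaptors, which lead to NF-kB and MAP kinases. In macrophages, LPS is a textbook inducer of TNF, and several of the ligands costimulate T cells whose own receptors belong to the same superfamily.

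Total counts per library ran from 11450243 to 16835472 for untreated cells and LPS in the first table, and from 9464916 to 15607889 for the second. Levels are CPM, each gene's counts taken relative to the library's summed counts of genes that passed the low-count filter. They were scaled by TMM within each table, and the tables were never tested against each other. Of 8 macrophage markers, 7 had counts in every group and their summed level was 26227 to 31968 CPM in the first table. With LPS alone in the second table it was 19682 to 21672 CPM, and with rHDL 10021 to 12524 CPM. T cell markers stayed at or under 4.58 CPM summed, B cell markers at or under 1.31 CPM, and NK cell markers were at 0 in the second table. Library 3 of the loaded LPS group stood apart in stromal markers (6 genes, mainly of collagens and vessels), which summed to 26.0 CPM, against 1.96 CPM in the lowest library of its group. Leaving it out changed no count of called members in the comparisons with loading.

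Not every member could be read from the deposited counts, because reads that overlap more than 1 transcript row were not counted. Tnf, the founding cytokine, had only 48 of its 1653 exon bases to itself (2.9%), an exon at chr17:35200858-35200905 (mm10) that one of its rows has inside an intron of the other. Its values therefore follow reads on that stretch and are not a measure of Tnf level. Tnfrsf12a, the receptor of TWEAK, was read on 105 bases (10.9%), and Tnfrsf9, the receptor CD137, on 3.9%. Tnfsf13, which encodes APRIL, had no base of its own, and Tnfsf12Tnfsf13, a readthrough of its locus, had 0.13%; Tnfrsf19 had 18.4%. Tnfsf12 itself was read on 42.3% of its bases and Fas on 86.7%. Tnfrsf19, Tnfrsf25 and Tnfsf13 had no count in any library. Another 8 members did not pass the low-count filter in either table: Ltb (74 counts over 18 libraries), Tnfrsf11b (30), Tnfrsf17 (9), Tnfrsf18 (5), Tnfsf11 (4), Tnfsf12Tnfsf13 (4), Tnfrsf9 (1) and Tnfrsf13c (1). Thus 26 members were tested for LPS, and 25 in the table with rHDL, where Tnfrsf12a also dropped out.

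Promoter sequence is shown for the 9 members that were called with rHDL in unloaded cells and have a promoter entry, because rHDL lowered and raised different members of 1 family. The lines give the 250 bases before the start site from RefSeq (GRCm38.p6, the mm10 assembly), 5′ to 3′ on the gene's strand. Capitals mark matches to 3 motifs searched on both strands: the NF-kB consensus, the AP-1 motif TGANTCA, and GAAANNGAA, the core of the interferon-stimulated response element. Of the 26 members tested, 20 had a promoter entry.
Tnfsf10, plus strand, chr3:27316827-27317076: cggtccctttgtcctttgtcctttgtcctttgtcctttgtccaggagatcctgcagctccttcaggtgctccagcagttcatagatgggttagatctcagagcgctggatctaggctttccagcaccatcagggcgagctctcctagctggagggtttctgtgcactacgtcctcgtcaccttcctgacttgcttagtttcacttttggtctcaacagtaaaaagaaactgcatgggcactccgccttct
Tnfrsf11a, plus strand, chr1:105780473-105780722: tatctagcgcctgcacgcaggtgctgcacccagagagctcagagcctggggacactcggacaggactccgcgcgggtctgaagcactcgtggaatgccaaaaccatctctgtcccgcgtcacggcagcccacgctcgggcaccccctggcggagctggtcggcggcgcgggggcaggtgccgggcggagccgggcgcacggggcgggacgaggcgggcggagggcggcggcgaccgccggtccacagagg
Fas, plus strand, chr19:34290409-34290658: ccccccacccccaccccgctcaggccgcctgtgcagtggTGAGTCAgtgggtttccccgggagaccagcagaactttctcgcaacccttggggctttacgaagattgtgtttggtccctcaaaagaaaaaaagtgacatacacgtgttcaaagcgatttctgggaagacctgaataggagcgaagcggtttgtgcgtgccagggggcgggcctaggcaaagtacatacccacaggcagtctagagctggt
Tnfrsf14, minus strand, chr4:154928078-154928327: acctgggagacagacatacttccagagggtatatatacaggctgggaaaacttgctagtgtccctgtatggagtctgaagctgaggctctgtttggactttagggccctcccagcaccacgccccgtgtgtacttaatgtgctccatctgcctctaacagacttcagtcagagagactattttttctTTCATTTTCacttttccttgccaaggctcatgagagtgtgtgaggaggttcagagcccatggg
Tnfrsf8, minus strand, chr4:145315165-145315414: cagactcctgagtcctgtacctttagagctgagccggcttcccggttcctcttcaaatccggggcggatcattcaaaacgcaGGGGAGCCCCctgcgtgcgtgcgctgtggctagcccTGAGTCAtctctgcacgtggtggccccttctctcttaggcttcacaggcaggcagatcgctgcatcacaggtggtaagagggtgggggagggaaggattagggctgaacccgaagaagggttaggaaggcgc
Tnfrsf1a, plus strand, chr6:125349473-125349722: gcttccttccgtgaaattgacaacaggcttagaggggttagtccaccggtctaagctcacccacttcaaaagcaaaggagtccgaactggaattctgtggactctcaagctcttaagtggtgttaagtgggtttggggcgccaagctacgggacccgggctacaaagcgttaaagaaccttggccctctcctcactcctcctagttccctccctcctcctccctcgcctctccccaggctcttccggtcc
Tnfsf18, plus strand, chr1:161494407-161494656: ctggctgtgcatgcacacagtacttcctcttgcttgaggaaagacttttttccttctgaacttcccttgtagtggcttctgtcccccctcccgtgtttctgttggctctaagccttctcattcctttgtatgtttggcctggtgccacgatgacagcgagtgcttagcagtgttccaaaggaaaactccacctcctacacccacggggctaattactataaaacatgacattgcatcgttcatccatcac
Tnfsf15, minus strand, chr4:63745060-63745309: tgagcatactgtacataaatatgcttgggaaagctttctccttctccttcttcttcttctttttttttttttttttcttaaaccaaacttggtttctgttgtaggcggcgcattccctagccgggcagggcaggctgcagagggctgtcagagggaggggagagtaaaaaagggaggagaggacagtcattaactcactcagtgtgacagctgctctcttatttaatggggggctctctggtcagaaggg
Tnfrsf23, minus strand, chr7:143685876-143686125: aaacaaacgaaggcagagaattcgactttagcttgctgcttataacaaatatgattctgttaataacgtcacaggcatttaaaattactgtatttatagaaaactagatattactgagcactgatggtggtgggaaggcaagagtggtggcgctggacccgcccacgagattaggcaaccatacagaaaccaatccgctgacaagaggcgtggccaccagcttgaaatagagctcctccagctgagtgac

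The first 6 of these genes fell with rHDL and the last 3 rose. Tnfrsf8 held the NF-kB consensus, which was in 3.90% of 32851 promoter windows of this length, and the AP-1 motif, which was in 6.75%. Fas held the AP-1 motif, and Tnfrsf14 held the interferon-stimulated core, which was in 7.13% of the windows. The other 6 windows held none of these letter strings. Taking the first listed window of each of the 20 members, 1 held the NF-kB consensus, 3 the AP-1 motif (Tnfrsf8, Tnfsf14 and Fas) and 4 the interferon-stimulated core (Tnfsf8, Tnfrsf1b, Tnfrsf14 and Tnfrsf4). Tnfsf13b has 2 start sites in RefSeq, and its second window, not in these counts, held the AP-1 motif and the interferon-stimulated core. The matches describe these letters and say nothing of binding.

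**Figure D1:**
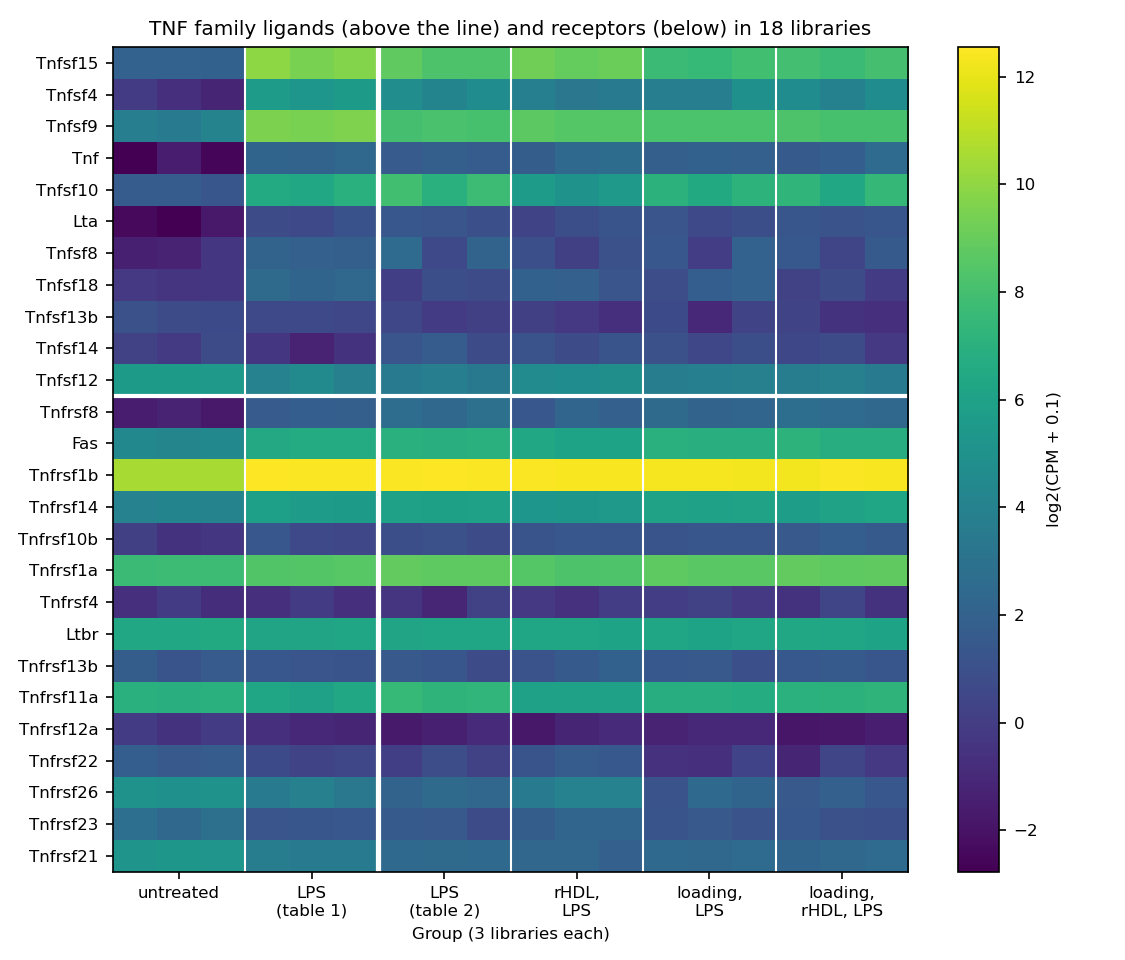
Log2(CPM + 0.1) of the 26 tested members (rows; ligands above the white line, receptors below) in the 18 libraries (columns; 3 per group, the thick line parts the 2 tables). Rows are ordered within each class by the LPS change; the ligands at the top went from dark to light with LPS, while Tnfrsf1b was the lightest row in all 6 groups.

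The first comparison asked which members changed when resting macrophages met LPS. Of 26 members tested, 14 were called higher and 8 lower, at an adjusted p under 0.05 in edgeR's quasi-likelihood test over all genes. Among all 9576 genes tested, 72.9% were called, 35.3% higher and 37.6% lower; of the calls 48.4% were higher, or 18.7% with scaling by library totals only. The median log2 fold change of the 26 members was 0.97, against -0.05 for all genes. By class, 8 of 11 ligands were called higher, Tnf on its 48 own bases among them, and 2 lower, with a median of 3.90. Of 15 receptors 6 were called higher and 6 lower, with a median of -0.24. With library totals the median of all genes went to -0.77, the calls of Tnfrsf1a and Tnfrsf10b were lost, and Tnfrsf12a, Tnfrsf13b (-0.99) and Tnfsf13b (-0.98) passed as lower.

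Among the ligands that rose, Tnfsf15, which encodes TL1A, a costimulator of T cells, had the largest change. It was at 4.08, 4.10 and 3.88 CPM in the 3 untreated libraries and at 983, 723 and 836 CPM with LPS, a log2 fold change of 7.71 ± 0.15 (SE, adjusted p = 1.74e-11). Tnfsf9, the ligand of CD137 on activated T cells, went from 13.8, 11.9 and 17.1 CPM to 751, 698 and 761 CPM, a log2 fold change of 5.70 ± 0.13 (SE, adjusted p = 4.99e-11). No LPS library of either gene came near an untreated one, and both were low at rest and then among the best expressed members. Tnfsf4, the OX40 ligand, went from 0.880, 0.513 and 0.340 CPM to 49.2, 39.6 and 48.3 CPM, a log2 fold change of 6.22 ± 0.20 (SE, adjusted p = 4.76e-10). Tnfsf10, which encodes the death ligand TRAIL, went from 3.15, 3.17 and 2.38 CPM to 96.0, 81.2 and 126 CPM, a log2 fold change of 5.10 ± 0.19 (SE, adjusted p = 1.33e-09). Both sets of libraries were again far apart. Tnfsf18, the GITR ligand, went from 0.741, 0.652 and 0.680 CPM to 5.56, 4.37 and 5.11 CPM, a log2 fold change of 2.84 ± 0.22 (SE, adjusted p = 5.53e-07).

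The counts of Tnf, Lta and Tnfsf8, which were small, also rose. Tnf, on its 48 own bases, had 1 to 5 counts in the untreated libraries and 52 to 58 with LPS, or 0.0463, 0.233 and 0.0680 CPM against 4.46, 4.13 and 5.03 CPM, with a fitted log2 change of 5.14 ± 0.37 (SE, adjusted p = 3.07e-07). Lta, lymphotoxin alpha, had 1 to 3 counts at rest and 18 to 23 with LPS, a log2 change of 3.90 ± 0.44 (SE, adjusted p = 1.14e-05). The CD30 ligand Tnfsf8 was at 0.428 ± 0.219 CPM (SD, n = 3) and then 3.80 ± 0.292 CPM, with a log2 change of 3.22 ± 0.30 (SE, adjusted p = 2.84e-06). These counts are small, so the fold changes are less precise than those of the abundant ligands, and their SEs are larger. Ltb, next to Tnf on chromosome 17, had 4 to 6 counts untreated and 5 to 12 with LPS and was not tested.

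The ligands that fell were Tnfsf12, which encodes TWEAK, and Tnfsf14, which encodes LIGHT. Tnfsf12 went from 47.1, 46.8 and 45.4 CPM to 16.2, 24.0 and 15.2 CPM, a log2 fold change of -1.33 ± 0.14 (SE, adjusted p = 9.25e-06), with every LPS library below every untreated one. Tnfsf14 was near the detection limit, with 17 to 24 counts untreated and 4 to 8 with LPS, and a log2 fold change of -1.08 ± 0.40 (SE, adjusted p = 0.0306). Its call was lost with DESeq2 (adjusted p = 0.102) and without any 1 of 4 libraries: untreated 1 (-1.09), untreated 3 (-0.84), LPS 2 (-0.79) or LPS 3 (-1.18). Tnfsf13b, the B cell factor BAFF, was at 1.66 ± 0.248 CPM and then 1.39 ± 0.0754 CPM and was not called (-0.27, adjusted p = 0.341); scaling by library totals alone gave -0.98 (adjusted p = 0.00294), which passed.

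**Figure D2:**
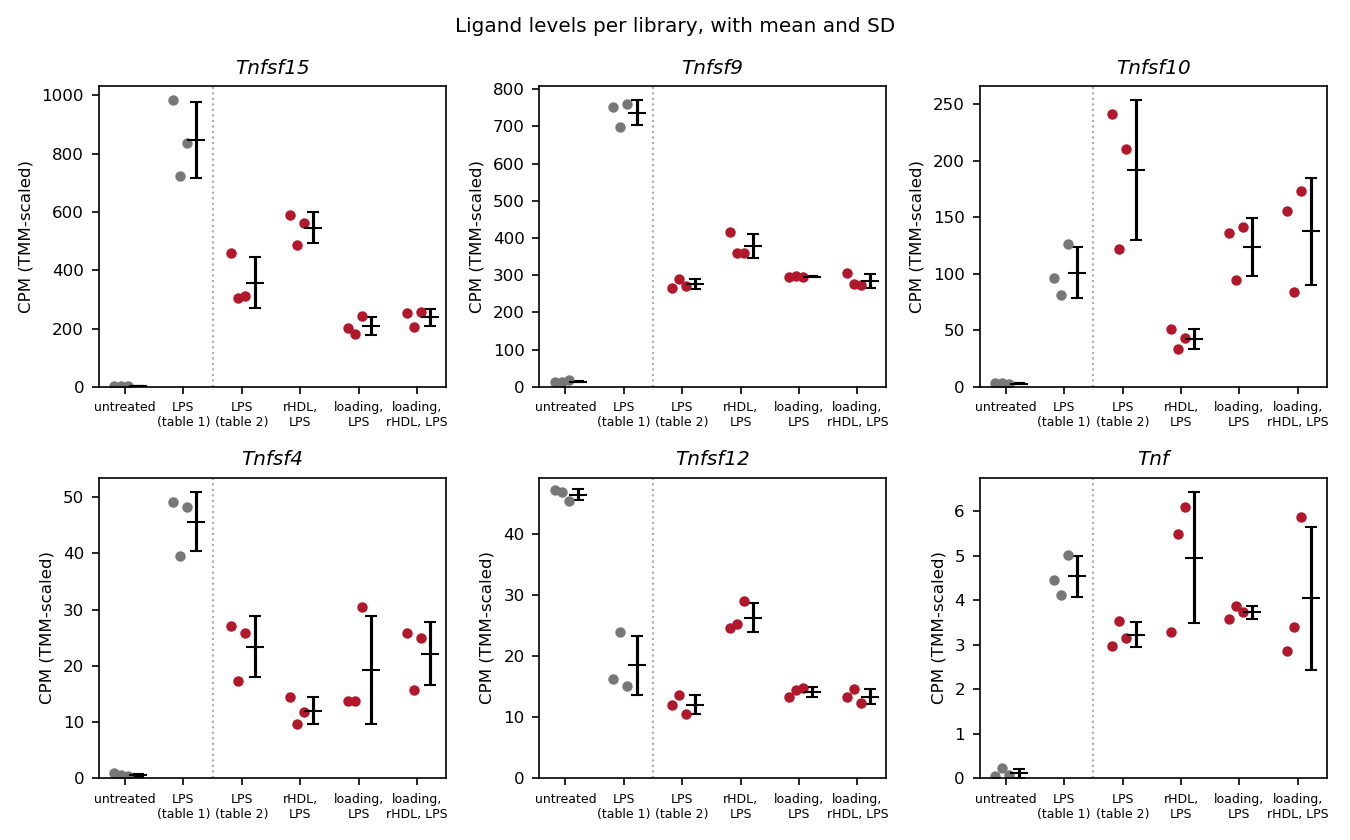
CPM (TMM-scaled within each table) of 6 ligands in every library (points; grey for the first table, red for the second), with the mean and SD of each group of 3 beside them. Tnfsf15, Tnfsf9, Tnfsf10 and Tnfsf4 are near 0 in untreated cells; in the second table, Tnfsf10 is low and Tnfsf12 high with rHDL and no loading; Tnf is counted on 48 bases only.

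Of the receptors, Tnfrsf1b, the TNF receptor found mainly on blood and immune cells, was the most abundant member in every group, also per kilobase of own exon. It was at 1498, 1498 and 1509.7 CPM untreated and at 6019.8, 5690.0 and 5744 CPM with LPS, a log2 fold change of 1.95 ± 0.08 (SE, adjusted p = 2.48e-09). Per kilobase its mean level with LPS was 1184 CPM, followed by Tnfsf9 at 599 and Tnfrsf1a at 163 CPM per kilobase. Tnfrsf1a, the death domain receptor of TNF, went from 208, 213 and 212 CPM to 333, 348 and 374 CPM, a log2 fold change of 0.74 ± 0.07 (SE, adjusted p = 3.91e-06). With library totals this became 0.02 (adjusted p = 0.791), so this call depends on the scaling.

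Fas, the death receptor of Fas ligand, went from 20.7, 18.4 and 20.7 CPM to 89.1, 102 and 99.997 CPM with LPS, a log2 fold change of 2.28 ± 0.09 (SE, adjusted p = 2.48e-09). Tnfrsf14 encodes HVEM, a receptor of LIGHT. It went from 16.4, 17.3 and 16.998 CPM to 57.9, 49.3 and 46.8 CPM, a log2 fold change of 1.60 ± 0.10 (SE, adjusted p = 8.56e-08). In both genes all LPS libraries were above all untreated ones. Tnfrsf8, which encodes CD30, rose from 0.232, 0.326 and 0.204 CPM to 2.95, 3.42 and 3.55 CPM, a log2 fold change of 3.63 ± 0.29 (SE, adjusted p = 6.99e-07). Tnfrsf10b, the mouse TRAIL death receptor, had 10 to 21 counts untreated and 15 to 30 with LPS, with a log2 fold change of 1.20 ± 0.34 (SE, adjusted p = 0.00842).

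The receptors that fell included a cluster of 3 neighbours on chromosome 7, Tnfrsf26, Tnfrsf22 and Tnfrsf23; Tnfrsf22 and Tnfrsf23 encode decoy receptors for TRAIL. Tnfrsf26 went from 34.0, 29.8 and 33.7 CPM to 11.4, 14.9 and 10.2 CPM, a log2 fold change of -1.41 ± 0.13 (SE, adjusted p = 2.67e-06). Tnfrsf23 went from 6.86, 5.31 and 7.21 CPM to 2.36, 2.38 and 2.51 CPM, a log2 fold change of -1.41 ± 0.19 (SE, adjusted p = 4.27e-05), and Tnfrsf22 had a change of -1.19 ± 0.22 (SE, adjusted p = 0.000595). The 3 are close paralogs, so reads may be divided uncertainly among them. Tnfrsf21, the death receptor DR6, went from 35.1, 40.8 and 37.9 CPM to 13.0, 11.5 and 12.2 CPM, a log2 fold change of -1.63 ± 0.10 (SE, adjusted p = 6.83e-08). Tnfrsf11a encodes RANK, the receptor through which osteoclasts form. It went from 125, 119 and 124 CPM to 74.9, 65.1 and 82.9 CPM, a log2 fold change of -0.73 ± 0.09 (SE, adjusted p = 2.82e-05). In each of these receptors no LPS library reached the untreated range.

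Osteoclast markers moved the same way as Tnfrsf11a: 6 genes, 5 of them with counts, summed to 751 to 821 CPM in untreated cells and to 366 to 427 CPM with LPS. Most of that was Atp6v0d2, the defining marker Calcr was at 0, and the part of these genes in the result was not tested. The lymphotoxin beta receptor, Ltbr, had the smallest called change. Its libraries were at 86.1, 83.3 and 92.9 CPM and then 71.0, 71.3 and 79.0 CPM, a log2 fold change of -0.24 ± 0.08 (SE, adjusted p = 0.0168). That call was lost with DESeq2 (adjusted p = 0.0619) and without untreated library 3 (-0.20) or LPS library 2 (-0.20). Tnfrsf4, Tnfrsf13b and Tnfrsf12a were not called, at 0.04, -0.28 and -0.86 (adjusted p = 0.0531). Tnfrsf4, which encodes OX40, turned to -0.67 with library totals and to -0.10 or -0.08 without untreated library 1 or 3. Tnfrsf12a also passed the threshold without untreated library 2 (adjusted p = 0.0479).

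In bulk RNA, fewer cells of a kind and less RNA per cell cannot be told apart. The family members Cd40 and Cd70, which carry other symbols, were also followed. Cd40, a costimulatory receptor, had 1 count in the 3 untreated libraries together and 80 with LPS, and Cd70, a ligand, had 1 and 66. Both were called higher (adjusted p = 1.55e-06 and 4.32e-06). Of the other 8 members with other symbols, Relt alone was tested, and it was not called (-0.57, adjusted p = 0.179).

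The second comparison asked what rHDL did before LPS, in cells without loading. Of 25 members tested, 7 were called higher and 7 lower. Over all 8965 genes 36.5% were called, 18.1% higher and 18.4% lower; of the calls 49.5% were higher, or 66.3% with library totals. The median change of the members was -0.07, against 0.03 for all genes. The calls split 4 up and 2 down among 11 ligands, and 3 up and 5 down among 14 receptors. With library totals the median of all genes was 0.14, and no member called here turned direction.

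The largest fall was that of the TRAIL gene, Tnfsf10, whose promoter stands first above. It was at 242, 122 and 211 CPM with LPS alone and at 51.0, 33.4 and 43.4 CPM with rHDL, a log2 fold change of -2.16 ± 0.28 (SE, adjusted p = 3.26e-05). The LPS libraries were spread widely, yet the lowest of them lay well above the highest rHDL library. Tnfsf4, the OX40 ligand, was at 27.1, 17.3 and 25.8 CPM with LPS and 14.5, 9.74 and 11.7 CPM with rHDL, a log2 fold change of -0.95 ± 0.29 (SE, adjusted p = 0.0198). Its groups did not overlap, but the call was lost without LPS library 1 (adjusted p = 0.0805) or 3 (0.068), or without rHDL library 2 (0.0733) or 3 (0.0559). Tnfsf8, the CD30 ligand, was at 5.85, 1.45 and 4.14 CPM and 1.83, 0.974 and 1.96 CPM, a change of -1.23 ± 0.50 (SE, adjusted p = 0.0694) that did not pass. The low second LPS library overlapped the rHDL range, and without it the change was -1.65 (adjusted p = 0.0105). With all libraries it passed with no low-count filter (-1.22, adjusted p = 0.00462) and in the fit of the 2 groups alone (-1.24, adjusted p = 0.0469).

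Other ligands were higher with rHDL. Tnfsf12, the TWEAK gene, was at 12.03, 13.7 and 10.5 CPM with LPS and 24.7, 25.3 and 29.0 CPM with rHDL, a log2 fold change of 1.12 ± 0.11 (SE, adjusted p = 3.5e-06). Tnfsf15 was at 458, 303 and 312 CPM and 591, 486 and 562 CPM, a change of 0.61 ± 0.15 (SE, adjusted p = 0.00541), and Tnfsf9 was at 264, 290.3 and 272 CPM and 415, 361 and 361 CPM, a change of 0.46 ± 0.07 (SE, adjusted p = 0.00018). In all 3 genes each rHDL library lay above each LPS library, though the gap was small for Tnfsf15, 486 against 458 CPM. Tnfsf18, the GITR ligand, was at 0.958, 1.82 and 1.64 CPM and 3.86, 3.69 and 2.33 CPM, a change of 1.15 ± 0.34 (SE, adjusted p = 0.0159). This call was lost without LPS library 1 (0.0793), rHDL library 1 (0.0543) or rHDL library 2 (0.0504; all adjusted p).

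Tnfsf18 and Tnfsf4 are neighbours on chromosome 1, 76450 bases apart with no other coding gene between them in RefSeq, and rHDL moved them in opposite directions. Tnf, on its 48 own bases, was at 2.98, 3.54 and 3.16 CPM with LPS and 3.29, 5.50 and 6.10 CPM with rHDL, a log2 change of 0.60 ± 0.27 (SE, adjusted p = 0.101) that did not pass. Without rHDL library 1, the only one of its group inside the LPS range, the Tnf change was 0.82 (adjusted p = 0.0187), and with no low-count filter 0.61 (adjusted p = 0.0427). Lta, Tnfsf13b and Tnfsf14 were at -0.40, -0.38 and -0.30 and were not called (adjusted p = 0.242, 0.536 and 0.442).

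Among the receptors, Tnfrsf11a, the RANK gene, changed most clearly. Its libraries were at 181, 147 and 159 CPM with LPS and 63.6, 64.7 and 64.7 CPM with rHDL, a log2 fold change of -1.33 ± 0.08 (SE, adjusted p = 2.77e-08). The rHDL libraries lay close to one another and far below the LPS range. The summed level of osteoclast markers went the other way, at 103 to 109 CPM with LPS and 199 to 227 CPM with rHDL. Of the 3 osteoclast markers tested, 1 was called higher and 2 were not called, and their part in the result was not tested. Macrophage markers were lower beside it, as given above, with 6 of 7 tested called lower and 1 higher, and neutrophil markers went from 12.8 to 16.0 CPM to 3.09 to 5.08 CPM. The part of these in the member changes was not tested either.

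Fas was at 123, 116 and 125 CPM with LPS and 84.5, 68.8 and 69.4 CPM with rHDL, a log2 fold change of -0.71 ± 0.10 (SE, adjusted p = 8.88e-05). Its 2 transcript rows, tested singly, gave -1.14 ± 0.22 (SE, adjusted p = 0.000866) for the row of 3 exons and -0.69 ± 0.10 (adjusted p = 0.000126) for the row of 9 exons. The first holds 725 of the 19475 Fas counts, and the authors' deposited table lists Fas at -1.16, close to that row. Tnfrsf14, the HVEM gene, was at 65.0, 62.3 and 63.1 CPM and 38.6, 41.1 and 44.5 CPM, a change of -0.62 ± 0.10 (SE, adjusted p = 0.000231). Tnfrsf1a was at 470.4, 426 and 440.2 CPM and 359, 311 and 324 CPM, a change of -0.43 ± 0.07 (SE, adjusted p = 0.000282). In Fas, Tnfrsf14 and Tnfrsf1a every rHDL library was below every LPS library. Tnfrsf8, the CD30 gene, was at 6.39, 4.90 and 7.41 CPM and 2.47, 4.59 and 3.69 CPM, a change of -0.80 ± 0.22 (SE, adjusted p = 0.0115), and lost its call without LPS library 3 (adjusted p = 0.0628).

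The other TNF receptor gene, Tnfrsf1b, did not pass. It was at 5731, 5959 and 5601 CPM with LPS and 5629, 5408 and 5482 CPM with rHDL, a change of -0.07 ± 0.06 (SE, adjusted p = 0.431), and 0.05 with library totals. Its groups overlapped. Ltbr, at 72.9, 77.4 and 79.0 CPM and 76.1, 74.9 and 68.3 CPM, also overlapped (-0.06, adjusted p = 0.542). Tnfrsf21 was at 5.43, 5.72 and 5.45 CPM and 4.80, 4.73 and 3.76 CPM (-0.32, adjusted p = 0.124). Tnfrsf10b, Tnfrsf13b and Tnfrsf4 lay between 0.12 and 0.40 and were not called (lowest adjusted p 0.179).

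The 3 neighbours on chromosome 7 were higher with rHDL. Tnfrsf26 was at 4.15, 5.63 and 4.80 CPM with LPS and 11.6, 16.1 and 16.0 CPM with rHDL, a change of 1.57 ± 0.24 (SE, adjusted p = 0.000121), and its groups were far apart. Tnfrsf23 was at 2.87, 2.72 and 1.64 CPM and 3.29, 4.66 and 4.67 CPM, a change of 0.78 ± 0.23 (SE, adjusted p = 0.0161). Tnfrsf22 was at 0.958, 1.73 and 1.09 CPM and 2.21, 3.06 and 2.63 CPM, a change of 1.03 ± 0.33 (SE, adjusted p = 0.0249). Neither pair of groups overlapped. The call of Tnfrsf23 was lost without LPS library 3 (adjusted p = 0.0824), rHDL library 2 (0.0592) or rHDL library 3 (0.0586). That of Tnfrsf22 was lost without LPS library 1 (0.106) or 3 (0.0896), without rHDL library 2 (0.0848) or 3 (0.0564), and with DESeq2 (0.0504).

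**Figure D3:**
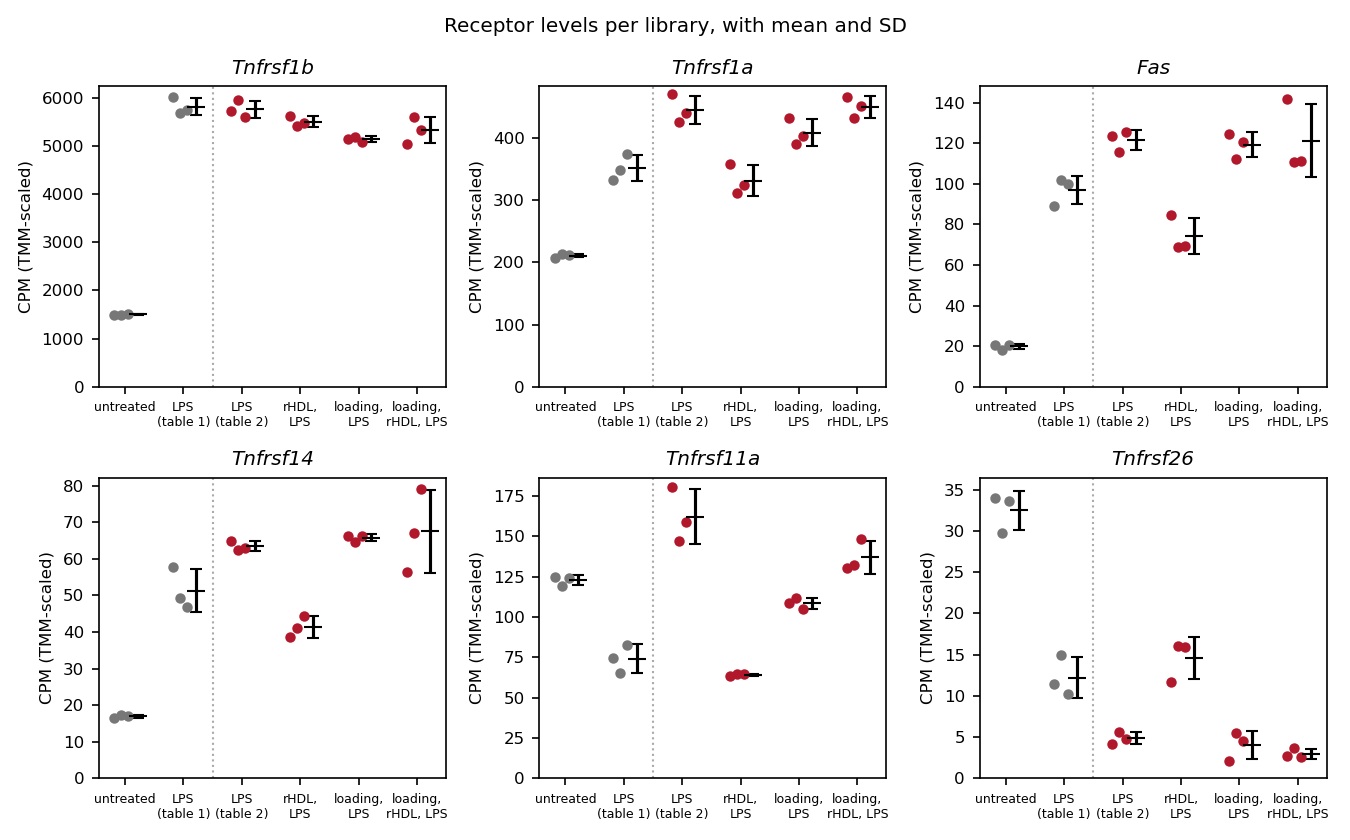
CPM (TMM-scaled within each table) of 6 receptors in every library (points; grey for the first table, red for the second), with the mean and SD of each group of 3 beside them. With rHDL and no loading, Fas, Tnfrsf14, Tnfrsf1a and Tnfrsf11a sit below the other groups of the second table and Tnfrsf26 above them, while Tnfrsf1b stays between 5049 and 5959 CPM in that table.

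The authors' deposited table for this comparison lists 11 of the 37 members among 1609 genes. All 11 were called here with the same sign; for example Tnfsf10 is listed at -2.18, Tnfrsf11a at -1.35 and Tnfrsf26 at 1.56. Tnfsf9, Tnfrsf14 and Tnfrsf1a, called here at 0.46, -0.62 and -0.43, are not listed there. The smallest change of a listed member is 0.60, for Tnfsf15. Tnfsf9 and Tnfrsf1a changed by less, but Tnfrsf14, at -0.62, by slightly more. The authors' list may use a cut on fold change that was not applied here, and why Tnfrsf14 is not listed was not tested. Absence from the list does not show a different result.

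The LPS and rHDL comparisons rest on different libraries, so their calls can be listed side by side. The LPS-only groups of the tables, scaled apart and never tested against each other, differed in level for some genes. Tnfrsf11a was at 65.1 to 82.9 CPM in the first and 147 to 181 CPM in the second. Summed neutrophil markers were at 83.2 to 90.2 and 12.8 to 16.0 CPM. Ltbr was close, at 71.0 to 79.0 and 72.9 to 79.0 CPM. The calls below are therefore not shown to start from the same LPS state. Of the 14 members that LPS raised, rHDL lowered 6 (Fas, Tnfrsf14, Tnfrsf1a, Tnfrsf8, Tnfsf10 and Tnfsf4) and raised 3 (Tnfsf15, Tnfsf18 and Tnfsf9). Tnf, read on its 48 own bases, is counted among the 14. Among all 3330 genes that LPS raised and that were tested in both tables, rHDL lowered 30.8% and raised 15.2%. Of the 8 members that LPS lowered, rHDL raised 4 (Tnfrsf22, Tnfrsf23, Tnfrsf26 and Tnfsf12) and lowered Tnfrsf11a. Among all 3110 such genes it raised 22.4% and lowered 9.97%.

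The third comparison made the same test of rHDL in cells loaded with cholesterol. None of the 25 members was called. In edgeR 2 of them had an unadjusted p under 0.05, for which the share over all genes was not computed. DESeq2 called 2, Tnfrsf11a and Tnfsf18, where over 8281 genes it called 91 higher and 76 lower. In edgeR 1.02% of all 8965 genes were called, 0.424% higher and 0.591% lower. Of the calls 41.8% were higher, or 27.2% with library totals and 54.5% with DESeq2. Tnfrsf11a was at 109, 112 and 105 CPM with loading and 130.1, 132 and 148 CPM with loading and rHDL, a log2 change of 0.34 ± 0.08 (SE, adjusted p = 0.0617). Its groups did not overlap, and the sign was opposite to that without loading. It passed in DESeq2 (adjusted p = 0.0134), with no low-count filter (0.0272), and without library 1 of those given both treatments (0.0401). Tnfsf18 was at 1.71, 3.37 and 4.02 CPM and 1.04, 1.56 and 0.852 CPM, a change of -1.39 ± 0.37 (SE, adjusted p = 0.11). It passed in DESeq2 (0.0376), with no filter (0.00925) and without loaded library 1 (0.0432), and without loaded library 3, the one with stromal markers, it was -1.12 (0.381). The authors' deposited table after loading lists 47 genes, and Tnfsf18 is the only member there, at -1.40 with an adjusted p of 0.032.

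For the other ligands that rHDL moved in unloaded cells, and for Tnf, the loaded groups with and without rHDL overlapped. Tnfsf10 was at 136, 94.5 and 141 CPM with loading and 155, 84.1 and 173 CPM with loading and rHDL, Tnfsf12 at 13.3, 14.4 and 14.8 and 13.3, 14.6 and 12.3 CPM, and Tnfsf15 at 201, 183 and 244 and 254, 204 and 257 CPM. The log2 changes were 0.15, -0.08 and 0.19. Tnfsf9 was at 295, 298 and 294 and 305, 275 and 273 CPM, a change of -0.06. Tnfsf4 was at 13.8, 13.7 and 30.4 and 25.8, 15.7 and 25.04 CPM, a change of 0.21, or 0.70 without loaded library 3, whose value is the highest. Tnf was at 3.59, 3.87 and 3.74 and 2.85, 3.40 and 5.88 CPM, a change of 0.13 that turned to -0.26 without library 3 of those given both treatments, the high one.

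Among the other receptors, Fas was at 125, 112 and 121 CPM with loading and 142, 111 and 111 CPM with both, and Tnfrsf14 was at 66.2, 64.6 and 66.4 and 56.4, 67.0 and 79.1 CPM, with changes of 0.02 and 0.04. Tnfrsf1a was at 432, 391 and 403 and 466, 432 and 452 CPM, and Tnfrsf1b at 5149, 5192 and 5076 and 5049, 5597 and 5338 CPM, with changes of 0.14 and 0.05. The groups overlapped in all 4 genes, in Tnfrsf1a only just. Tnfrsf8 was at 5.71, 4.18 and 4.58 and 6.65, 5.84 and 5.28 CPM (0.29), Tnfrsf26 at 2.12, 5.51 and 4.48 and 2.77, 3.70 and 2.56 CPM (-0.40). Ltbr, at 74.6, 70.6 and 78.5 and 80.7, 79.5 and 69.6 CPM, Tnfrsf21, at 5.39, 4.89 and 5.98 and 4.41, 5.15 and 5.79 CPM, and Tnfrsf23, at 2.20, 2.75 and 2.15 and 2.68, 1.95 and 1.87 CPM, were not called either (adjusted p = 0.887, 0.876 and 0.899). A missed threshold does not show that rHDL had no effect there.

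**Figure D4:**
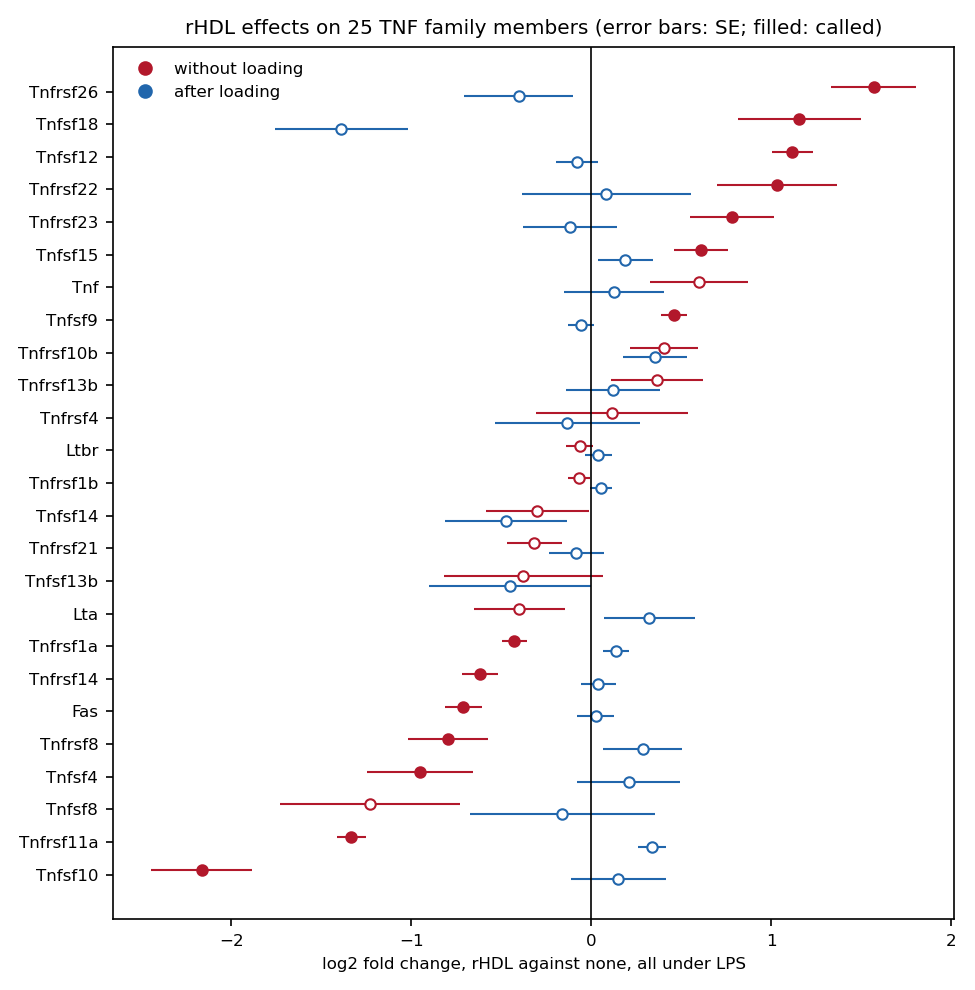
Log2 fold change of rHDL against none (x axis), all under LPS, for 25 members (y axis) without loading (red) and after loading (blue), with SE bars; filled points passed an adjusted p under 0.05. Without loading 14 points are filled and lie from -2.16 to 1.57, and after loading none is.

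Whether the rHDL effect differed between loaded and unloaded cells was tested directly, as the effect after loading minus the effect without. The effect without loading enters this difference with its sign turned, so members it moved tend to the opposite sign by construction. Of 25 members 11 were called, 7 higher and 4 lower, and over all genes 30.2% were called, 16% higher and 14.2% lower; of the calls 53.0% were higher, or 32.4% with library totals. The 7 are members that rHDL lowered in unloaded cells: Tnfsf10 had a difference of 2.32 ± 0.38 (SE, adjusted p = 0.000471) and Tnfrsf11a of 1.67 ± 0.11 (SE, adjusted p = 3.94e-07). Tnfrsf8, Fas, Tnfrsf14 and Tnfrsf1a had differences of 1.08, 0.74, 0.66 and 0.57. For the OX40 ligand gene Tnfsf4 the difference was 1.16 ± 0.41 (SE, adjusted p = 0.0454); it was lost in DESeq2, with library totals and without any 1 of 8 libraries, and was 1.66 (adjusted p = 0.0025) without loaded library 3. That of Tnfrsf8 was lost without LPS library 3 (adjusted p = 0.052).

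The 4 lower ones are members that rHDL raised in unloaded cells. The differences were -2.54 ± 0.50 (SE, adjusted p = 0.00165) for Tnfsf18, -1.97 ± 0.39 (SE, adjusted p = 0.00155) for Tnfrsf26, -1.20 ± 0.16 (SE, adjusted p = 0.000102) for Tnfsf12 and -0.51 ± 0.10 (SE, adjusted p = 0.0017) for Tnfsf9. Without loaded library 3 the difference of Tnfsf18 was -2.27 (adjusted p = 0.00646). For Tnfsf15, Tnfrsf22 and Tnfrsf23, which rHDL also raised in unloaded cells, the difference did not pass (-0.42, -0.95 and -0.90, adjusted p = 0.158, 0.25 and 0.0683). So for these 3 the rHDL effects were not shown to differ. Tnfsf15 passed with library totals (-0.60), with no filter (-0.43) and without LPS library 1 (-0.63), and Tnfrsf23 with library totals (-1.08) and without rHDL library 1 (-1.04) or library 1 of those given both treatments (-1.08).

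The last comparison asked what loading alone did under LPS. Of 25 members none was called higher and 2 were called lower, where 8.57% of all genes were called, 3.99% higher and 4.57% lower; of the calls 46.6% were higher, or 71.1% with library totals. The 2 were Tnfsf15, at 458, 303 and 312 CPM without loading and 201, 183 and 244 CPM with it, a change of -0.77 ± 0.15 (SE, adjusted p = 0.00658), and Tnfrsf11a, at 181, 147 and 159 and 109, 112 and 105 CPM, a change of -0.58 ± 0.08 (SE, adjusted p = 0.000388). In both the groups were apart. Without loaded library 3 these were -0.89 and -0.56 and still called. This comparison and that of rHDL without loading share the LPS-only libraries, so their values are given side by side only: for Tnfrsf11a -1.33 with rHDL and -0.58 with loading, for Tnfsf15 0.61 and -0.77. Tnfsf18 was at 1.00 (adjusted p = 0.103), or 0.74 without loaded library 3 and 1.31 (adjusted p = 0.0353) without loaded library 1. Tnfsf10 and Tnfrsf1b were at -0.62 and -0.17 (adjusted p = 0.17 and 0.116). With no low-count filter Tnfsf10 and Tnfsf18 passed (adjusted p = 0.00754 and 0.0353), and in DESeq2 Tnfrsf1b did (0.0158).

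The genes that carry the signal from these receptors were followed as a list of 51, grouped by role. With LPS, 38 were tested, of which 27 were called higher and 3 lower, with a median of 1.41, where over all genes 35.3% were higher and 37.6% lower, with a median of -0.05. All 7 tested NF-kB subunits and inhibitors rose, for example Nfkbia (the inhibitor IkB-alpha) by 3.86 and Nfkb1 (the p105 subunit precursor) by 2.93 on the log2 scale. Among the death effectors Cflar, the caspase-8 inhibitor FLIP, rose by 5.30 and Mlkl, the executor of necroptosis, by 3.87, with Casp8 at 0.52 and Bid at 0.25, whose signs turned with library totals (-0.20 and -0.47). Among the adaptors and complex genes, Tnfaip3 (the ubiquitin editor A20) rose by 5.25 and Traf1 by 4.48. Map3k14 (the kinase NIK) fell by 2.15, Tab1 by 2.02 and Traf4 by 1.21, the last lost in DESeq2 (adjusted p = 0.0877) and without LPS library 1 (0.0614). With library totals 13 genes of the list were lower, and Ripk1, Tab3 and Tax1bp1 also turned (-0.47, -0.38 and -0.08).

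With rHDL in unloaded cells, 5 of 36 were called higher and 16 lower, with a median of -0.17 against 0.03 for all genes, of which 18.1% were higher and 18.4% lower. The role with the most falls was that of the receptor complex and its ubiquitin enzymes, where 8 of 11 were lower and 1 higher. The ubiquitin ligase Birc3 (cIAP2) changed by -0.47 ± 0.06 (SE, adjusted p = 2.32e-05), Tax1bp1 by -0.71 ± 0.07 (SE, adjusted p = 2.2e-06), Tnip2 by -0.69 ± 0.06 (SE, adjusted p = 1.29e-06) and Rnf31 (HOIP, of the linear ubiquitin complex) by -0.62 ± 0.09 (SE, adjusted p = 7.32e-05). Otulin, which removes linear ubiquitin, rose by 0.49 ± 0.07 (SE, adjusted p = 0.000101). Of the death effectors Mlkl and Casp8 fell (-0.69 and -0.51) and Bid rose by 0.20. Casp8 lost its call in DESeq2 (adjusted p = 0.0555), with library totals (0.0669) and without any 1 of 5 of the 6 libraries (up to 0.0867), and Bid in DESeq2 (0.103), with no filter (0.0825) and without any 1 of 5 (up to 0.205). Of the kinases Map3k5 (ASK1), Ikbkb and Tab2 fell (-0.56, -0.44 and -0.26) and Map3k14 rose by 0.53. Ikbkb lost its call in DESeq2 (adjusted p = 0.109), with no filter (0.0863) and without each of the 6 libraries in turn (0.0549 to 0.124), and Map3k14 without any 1 of 4 (up to 0.11). Of the adaptors Traf6 and Fadd rose (0.31 and 0.34) and Traf1 fell (-0.36); Fadd lost its call without 1 of the libraries (adjusted p = 0.0568). Of 7 NF-kB subunits and inhibitors Nfkb1 alone passed, at -0.19, and it did not with library totals (-0.07), with no filter (-0.18), or without LPS library 1 (-0.17), rHDL library 2 (-0.19) or 3 (-0.19).

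After loading, where 1.02% of all genes were called, Map3k5 alone was called with rHDL, at 0.41 ± 0.07 (SE, adjusted p = 0.013); it was lost in the fit of the 2 groups alone (adjusted p = 0.0698), without loaded library 2 (0.0712) or 3 (0.08), and without library 3 of those given both treatments (0.0502). In edgeR 7 of the 36 had an unadjusted p under 0.05, for which the share over all genes was not computed. The difference between the rHDL effects was called higher in 17 of 36 genes and lower in 3 (Traf6, Otulin and Sharpin), where over all genes 16% were higher and 14.2% lower. Traf6 lost its call without any 1 of 7 of the 12 libraries (adjusted p up to 0.0634), and Sharpin in DESeq2 and without most single libraries. Of those called higher, Ikbkb lost its call without any 1 of 10 libraries, Rela of 9, Tnfaip3 of 5 and Rbck1 of 3. Ikbkb and Rbck1 also lost theirs in DESeq2. The difference was 0.97 for Map3k5, 0.87 for Tnip2, 0.47 for Birc3 and 0.76 for Tax1bp1. Loading without rHDL lowered 7 and raised none, where over all genes 4.57% were lower and 3.99% higher. The 4 with the smallest p were Map3k5, Tnip2, Ripk1 and Tax1bp1, at -0.74, -0.49, -0.33 and -0.37. The others were Map3k8, Tnfaip3 and Rela, at -0.24, -0.40 and -0.29. Map3k8 lost its call without each of the 6 libraries in turn, with library totals and with no filter. Tnfaip3 lost its call without any 1 of 4 libraries and with library totals, and Rela without either of 2.

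**Figure D5:**
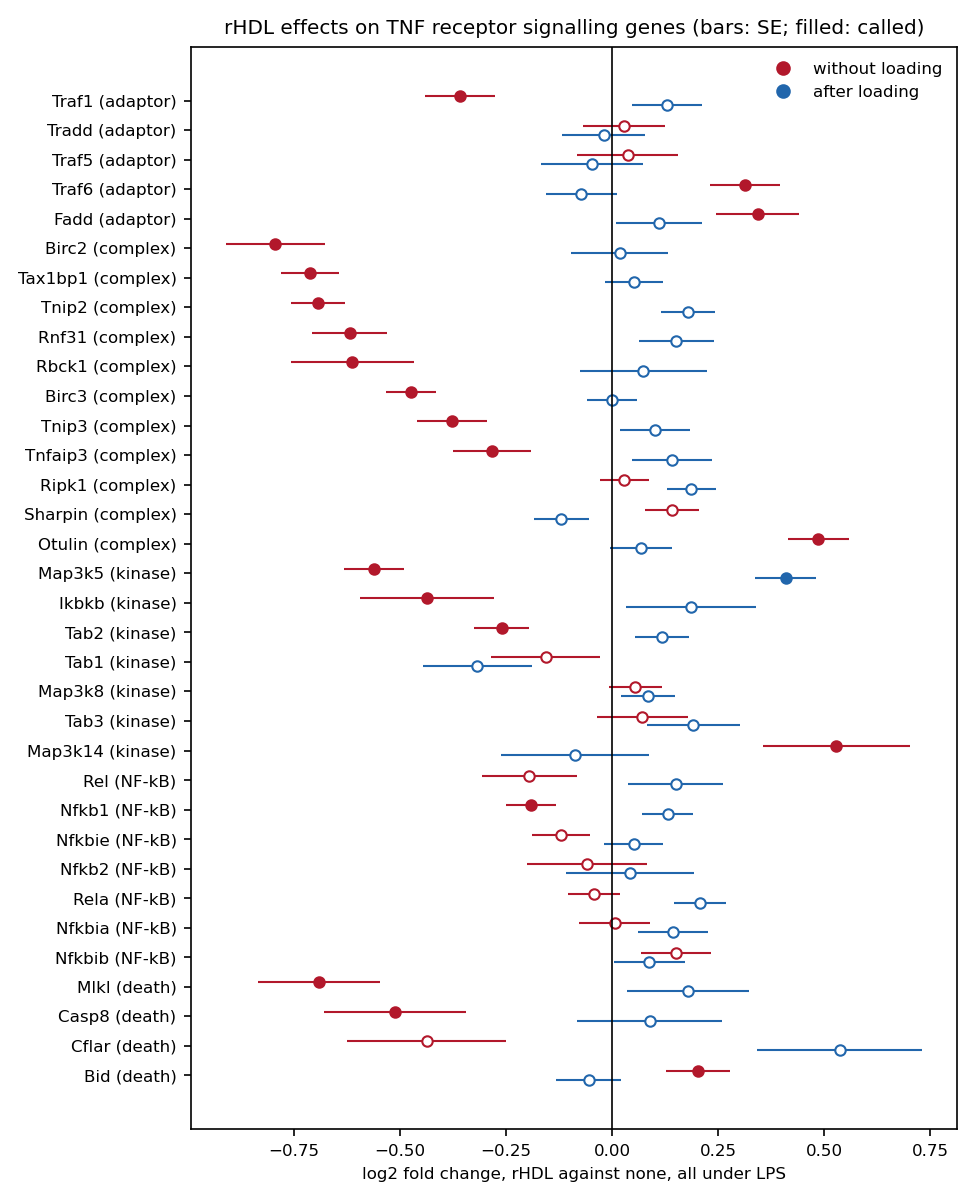
Log2 fold change of rHDL against none (x axis), all under LPS, for 34 TNF receptor signalling genes (y axis, by role) without loading (red) and after loading (blue), with SE bars; filled points passed an adjusted p under 0.05. In the complex group 8 red points are filled left of 0 and 1 right of it; Map3k5 is the only filled blue point; with library totals in place of TMM, Nfkb1, Tab2, Tnfaip3, Casp8 and Ikbkb lost their calls and no filled point changed side.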

How the data were processed

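The authors deposited raw read counts for 32850 transcript rows in 2 tables, and did not normalise them, per the file headers and values. Per the submitters' processing notes, reads were trimmed with cutadapt, aligned to mm10 with HISAT2 and counted with featureCounts of Subread, with no versions given; libraries were made from poly-A RNA per the labels. Reads on more than 1 row were not counted: of 6698 rows without an own exon base, 1 had a count. For 2 of the comparisons the authors deposited lists of genes with their log2 changes and adjusted p-values. Exon bases and rows come from the deposited coordinates (mm10); promoters are from RefSeq (GRCm38.p6).

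Rows were summed per symbol. Genes were kept by filterByExpr (minimum count 10) and scaled by TMM in edgeR 4.0.16 (R 4.3.3). Quasi-likelihood F tests with Benjamini-Hochberg adjustment over all genes called a gene at an adjusted p under 0.05. The tables were fitted apart, and the 12 libraries of the second shared 1 fit. SE is the size of the log2 change divided by the square root of F. The script was tested on simulated data. Members and lists were chosen with earlier results of these data known. Every member is accounted for; those called in some comparison and with a mean of at least 5 CPM in some group have each library's value, and signalling genes are up to 4 per role by p, or a small count, plus a few picked after their values were seen. Replicate numbers were not treated as pairs, because same-numbered libraries of different groups did not all correlate above 0.1. They correlated at -0.08 to 0.07 in the first table. In the second, libraries 1 correlated with one another, as did libraries 2, at 0.15 to 0.44, and libraries 3 at -0.03 to 0.18. Runs with a replicate block are given only in the closing section on processing. Alternatives were DESeq2 1.42.0, its size factors, library totals, 3 other low-count filters, a replicate block, the highest row per symbol, the 2 groups alone and leaving out each library; single rows of Fas were added after seeing the data. The values of 1 signalling gene are not reported here. Counting error is largest for Tnf, Lta and the other members under 5 CPM.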

Additional observations from a re-analysis of the deposited data

Results flagged for a closer look

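For 11 members the effect of rHDL differed between loaded and unloaded cells by a test of the difference itself (edgeR, effect after loading minus effect without, n = 3 libraries per group). The difference was positive for Tnfsf10 (2.32), Tnfrsf11a (1.67), Tnfsf4 (1.16), Tnfrsf8 (1.08), Fas (0.74), Tnfrsf14 (0.66) and Tnfrsf1a (0.57). It was negative for Tnfsf18 (-2.54), Tnfrsf26 (-1.97), Tnfsf12 (-1.20) and Tnfsf9 (-0.51). In the main fit the 2 effects had opposite signs in all 11, though no effect after loading passed on its own. The effects without and after loading were 1.15 and -1.39 for Tnfsf18, and -1.33 and 0.34 for Tnfrsf11a. For the others the effect after loading lay between -0.40 (Tnfrsf26) and 0.29 (Tnfrsf8). Over all genes 30.2% were called in this test. The call of Tnfsf4 was lost in DESeq2, with library totals and without any 1 of 8 libraries. That of Tnfrsf8 was lost without LPS library 3.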

How the results depend on the processing

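Of the member calls, 18 of 22 with LPS and 9 of 14 with rHDL held in every alternative run that tested the gene. So did 9 of 11 in the difference and 2 of 2 with loading. A run that did not test a gene was not counted as losing its call. With library totals only, calls over all genes were 1532 higher and 6640 lower with LPS (3380 and 3605 with TMM), 2507 higher with rHDL (1621), 25 higher after loading (38), 2124 lower in the difference (1272), and 626 higher and 254 lower with loading (358 and 410). Signalling genes called lower with LPS became 13 (3); in the difference 11 were higher (17) and 6 lower (3). Signs that turned there were, with LPS, Bid -0.47, Casp8 -0.20, Ripk1 -0.47, Tab3 -0.38, Tax1bp1 -0.075 and Tnfrsf4 -0.67; with rHDL, Tnfrsf1b 0.049; after loading, Fas -0.034 and Tnfrsf1b -0.0013. With this scaling the median over all genes went from -0.05 to -0.77 with LPS and from -0.03 to -0.20 in the difference. Of 75 member levels of at least 5 CPM, 31 moved by over 1 SD.

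For rHDL after loading, genes called higher were 91 with DESeq2, 90 with no filter and 19 in the fit of the 2 groups alone, and genes called lower 86 with no filter and 23 in that fit; members were 1 higher and 1 lower with DESeq2 and with no filter. Signalling genes higher were 2 with DESeq2 and 0 in that fit. With loading, no filter gave 1 member higher, and the fit of the 2 groups 691 genes lower. The cause was not tested.

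With the replicate number as a block, genes called after loading were 277 higher and 209 lower, with 1 member each way and 3 signalling genes higher; with loading alone they were 717 higher and 934 lower, with 1 member higher, 4 lower and 14 signalling genes lower. In the difference 5 signalling genes were lower. Members not called in the main fit that passed under the block included Tnfrsf11a and Tnfsf18 after loading and Tnf and Tnfsf8 with rHDL. So did Tnfsf15 in the difference, and Tnfsf10, Tnfrsf1b and Tnfsf18 with loading alone. No other count of calls moved by over 1.5 times under the block, and the numbers are not shown to pair the libraries.

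Leaving out 1 library at a time gave 10 to 68 genes higher and 20 to 55 lower after loading, with 0 to 1 members each way and 0 to 1 signalling genes; 158 to 245 higher and 189 to 349 lower with loading, with 0 to 1 members higher and 4 to 6 signalling genes lower; 4 to 7 members and 2 to 4 signalling genes higher with rHDL (4 members without rHDL library 2); and 1 to 4 signalling genes lower in the difference. Signs turned for Tnfrsf4 with LPS (-0.10 to 0.18) and, after loading, for Fas (-0.10 to 0.087), Tnf (-0.26 to 0.34) and Tnfsf10 (-0.047 to 0.41), none of which was called. Depth limits, among others, Tnf, Lta, Tnfsf8, Tnfsf14, Tnfsf18, Tnfrsf10b and Tnfrsf22, with under 100 counts in each library.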
